A study of Homo sapiens with 8 samples.

Results

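The genes described are 44 genes of the short arm of human chromosome 18 that were counted in BEAS-2B cells, an SV40-immortalised line of human bronchial epithelium. They were chosen by position and level: every row placed only on the primary chromosome 18 sequence, starting before 15.4 Mb, with no second row for the same gene on an alternate sequence, and with a mean of at least 50 counts over the 8 libraries. The rule took 44 of the 210 short-arm rows without such a copy, out of 50006 rows in all. Of the 44, 43 are protein-coding and 1, LINC00667, is a long non-coding RNA. The 127 long-arm genes that pass the same count minimum serve as the reference. Because the set was proposed with a shift of this arm already known, the medians and counts over the 44 genes are descriptions and carry no test.

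The short arm of chromosome 18 carries no single pathway. Its genes encode, among others, regulatory light chains of non-muscle myosin II, which let the motor pull on actin, a kinetochore subunit that ties chromosomes to spindle microtubules, the thymidylate synthase that supplies DNA precursors, a Src family kinase, and SMCHD1, a chromatin protein that keeps the inactive X chromosome and imprinted clusters silent. Genes that lie together on an arm share a stretch of DNA and, in a cell line, any gain or loss of that stretch. The values here are RNA counts, and DNA copy number was not measured.

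The cells, all labelled wild type and grown in serum-free LHC-9 medium, were exposed for 4 h. The 4 groups of 2 libraries are Mock, which received PBS, FBG, which received fibrinogen, the clotting protein, M1-FCP, which received what the labels call FCPs derived with Der m 1, a mite allergen, without spelling the abbreviation out, and αC, which received the αC domain of fibrinogen. The 3 proteins were given at 4 ng/µl. The labels call the libraries of a group biological replicates and do not say what a replicate number shares, so a p-value here reflects no more than how far these libraries vary, and that variation may be technical. The libraries held 15137196 to 22258791 counts assigned to genes, and 3 counts correspond to 0.127 to 0.202 CPM, counts scaled to a common library total. Between the 2 libraries of a group the 44 genes differed by about counting error alone, with a mean chi-square of 1.02 in Mock, 1.03 in FBG, 0.963 in M1-FCP and 1.06 in αC, where 1 is the value of pure counting error. Markers of the cell state differed between the groups too. The summed level of 10 epithelial markers was 1311 to 1318 CPM in Mock, 1159 to 1180 in FBG, 4542 to 4610 in M1-FCP and 4555 to 4628 in αC. That of 10 mesenchymal markers was 11634 to 11640, 9823 to 9888, 9618 to 9623 and 8822 to 8835, in which the step from Mock to FBG is larger than that from FBG to M1-FCP. Most of this sum is FN1, the fibronectin gene, which was called higher in M1-FCP against Mock at a log2 fold change of 0.15, while COL1A1, VIM and CDH2 stood at -3.64, -1.42 and -2.24. All 10 epithelial markers were called higher and 7 of 9 tested mesenchymal ones lower in M1-FCP against Mock. KRT5, a basal keratin, had 2.27 and 1.80 CPM in Mock, 6.94 and 7.61 in FBG, 1572 and 1591 in M1-FCP and 1571 and 1636 in αC. GRHL2, an epithelial regulator, had no count in Mock and 20.6 and 22.7 CPM in M1-FCP. COL3A1 was at 0 throughout, but this gene has a second row. Reads that match both rows may be lost, so its 0 does not show absence. KRT8 and KRT18, keratins of simple epithelium, were at 357 CPM or more in every library, while KRT5, CDH1, EPCAM, TP63 and GRHL2, which also mark bronchial epithelium, were under 10 CPM in each Mock and FBG library. KRT17, another keratin of this marker list, was not near 0 there, with 349 and 347 CPM in Mock and 356 and 346 in FBG. It had 989 and 1006 CPM in M1-FCP and 1064 and 1075 in αC. Of 6 blood markers nearly all counts were CD68, with CD3E and HBB at 0 in all libraries, and 5 endothelial markers summed to 0.876 to 4.19 CPM. The part of these marker differences in the values of the short arm was not tested. The labels do not say whether the groups were set up from the same parent culture, so in every comparison the 4 h exposure and a difference in state or origin already present between the cultures cannot be told apart.

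The DNA in front of 5 genes that the results turn on is shown first, 5′ to 3′, from RefSeq on GRCh38.p14. METTL4, an adenine methyltransferase gene, and NDC80, the kinetochore gene, start back to back, and the sequence between their starts (chr18:2571506-2571556, plus strand, 51 bases) is shown because both genes are members and share it. The capitals mark TGACGTCA, the palindromic cAMP response element, a motif added to the search after this sequence had been seen. The other 3 are the 250 bases before the start of SMCHD1 (chr18:2655476-2655725, plus strand), whose level was higher in every treated group, of TYMS, the thymidylate synthase gene (chr18:657403-657652, plus strand), and of EPB41L3, a membrane skeleton gene (chr18:5628992-5629241, minus strand), both lower. Their capitals mark the GC box GGGCGG on either strand, and SMCHD1 has 4 matches while TYMS and EPB41L3 have none in these windows. These 3 genes are a choice, and whether the box goes with the direction of change was not tested.
METTL4 and NDC80: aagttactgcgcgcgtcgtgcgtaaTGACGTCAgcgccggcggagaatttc
SMCHD1: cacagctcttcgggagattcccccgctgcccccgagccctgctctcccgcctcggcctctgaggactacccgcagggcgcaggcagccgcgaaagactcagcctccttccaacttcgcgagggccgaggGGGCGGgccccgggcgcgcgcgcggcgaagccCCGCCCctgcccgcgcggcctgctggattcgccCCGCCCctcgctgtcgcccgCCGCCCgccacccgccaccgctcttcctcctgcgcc
TYMS: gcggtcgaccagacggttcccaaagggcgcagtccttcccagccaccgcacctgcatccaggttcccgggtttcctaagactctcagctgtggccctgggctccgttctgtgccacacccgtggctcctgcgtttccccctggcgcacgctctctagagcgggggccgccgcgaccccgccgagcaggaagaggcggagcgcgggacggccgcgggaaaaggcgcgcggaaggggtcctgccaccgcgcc
EPB41L3: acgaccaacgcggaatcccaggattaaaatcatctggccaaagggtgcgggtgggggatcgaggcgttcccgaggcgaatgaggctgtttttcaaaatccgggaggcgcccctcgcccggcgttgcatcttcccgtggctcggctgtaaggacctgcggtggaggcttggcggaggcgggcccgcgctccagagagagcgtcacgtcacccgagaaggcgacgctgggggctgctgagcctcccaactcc

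Promoter windows of 300 bases, from 250 before to 50 after the start, were found for 39 of the 44 members. The GC box GGGCGG was present in 71.8% of them, in 72.7% of the 110 long-arm windows and in 71.6% of the 9159 windows of genes over the count minimum, against 44.6% of all 27305 windows. CCAAT was found in 23.1% of the member windows, 38.2% of the long-arm windows, 37.1% of those over the count minimum and 35.7% of all windows. The ETS core CCGGAAG was found in 17.9%, 14.5%, 20.4% and 10.7%, and TATAAA in none, 5.45%, 5.04% and 12% of them. TGACGTCA was found in 10.3% of the member windows, 4 of 39, in 4.55% of the long-arm windows, in 3.29% of those over the count minimum and in 1.98% of all windows. The windows of METTL4 and NDC80 both hold the single site that prompted the search, so it counts for 2 of the 4 and the share supports nothing. All motifs were searched on both strands. A match is a description of letters and not of a bound site.

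In the M1-FCP libraries the short arm was expressed above its Mock level in sum, while the long arm differed less. The 44 genes together took 0.154% and 0.156% of the counts in the Mock libraries and 0.172% and 0.174% in FBG. They took 0.316% and 0.313% in M1-FCP and 0.315% and 0.318% in αC. The summed level was 1702 and 1718 CPM in Mock, 1753 and 1775 in FBG, 2993 and 2960 in M1-FCP and 2967 and 2992 in αC. The M1-FCP and αC libraries were all above the Mock and FBG libraries, and the groups within each of these pairs lay close. Without TUBB6, the gene with the highest level, the sums were 1407 and 1425, 1510 and 1538, 2525 and 2495, and 2510 and 2546 CPM in the same order. The 127 long-arm genes summed to 6561 to 6599 CPM in Mock, 6748 to 6773 in FBG, 7161 to 7235 in M1-FCP and 7284 to 7300 in αC. The short arm therefore held 20.6% and 20.7% of the counts of both arms' genes in Mock and 29.5% and 29% in M1-FCP.

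**Figure D1:**
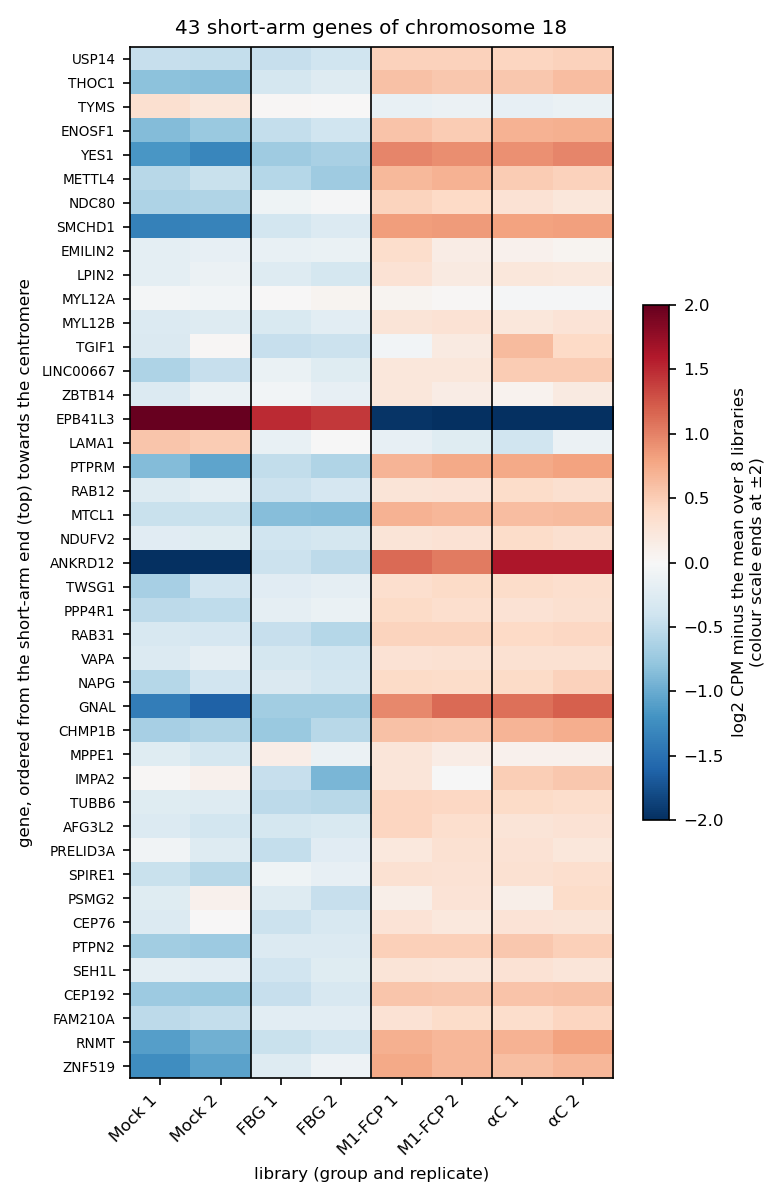
Levels of 43 of the 44 short-arm genes in the 8 libraries, each gene in a row in order of position, coloured by log2 CPM minus the gene's mean over the libraries, with the colour scale ending at 2 in each direction. Most rows are low in the Mock and FBG libraries and high in the M1-FCP and αC libraries, and EPB41L3, TYMS and LAMA1 run the other way.

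In M1-FCP against Mock, 37 of the 44 genes were called higher and 3 lower by edgeR's quasi-likelihood test (Benjamini-Hochberg adjusted p under 0.05 over all 16307 genes tested), and 4 were not called. Of all genes tested, 73.4% were called in this comparison, 37.3% higher and 36.1% lower, so a call as such is common here. These shares include genes below the count minimum of the members. Of the 11276 tested genes without a copy row and over that minimum, 37.2% were called higher and 46.9% lower. The median log2 fold change of the members was 0.78 (quartiles 0.43 and 1.19), a fold of 1.72, beside 0.26 over the long arm and 0.06 over all genes tested. A log2 fold change of at least 1 with a call was seen in 15 of the 44 genes, against 19.7% of all genes. Called or not, 1506 of the 11276 genes over the count minimum reached 1. Recomputed for each of the 4 pairings of an M1-FCP with a Mock library, the short-arm median exceeded the long-arm median by 0.49 to 0.54. Among whole chromosomes the medians ran from -0.38 on chromosome 22 to 0.38 on chromosome 18, with chromosome 9 at 0.37 and chromosome 6 at 0.27. The chromosome 18 value includes the 44 members, and its long arm alone stood at 0.26. Other chromosomes were not split by arm. In M1-FCP against FBG chromosome 9 stood at 0.40 and chromosome 18 at 0.23. Scaling by library size alone moves the median of all genes from 0.06 to 0.28, and all 44 members were then called.

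**Figure D2:**
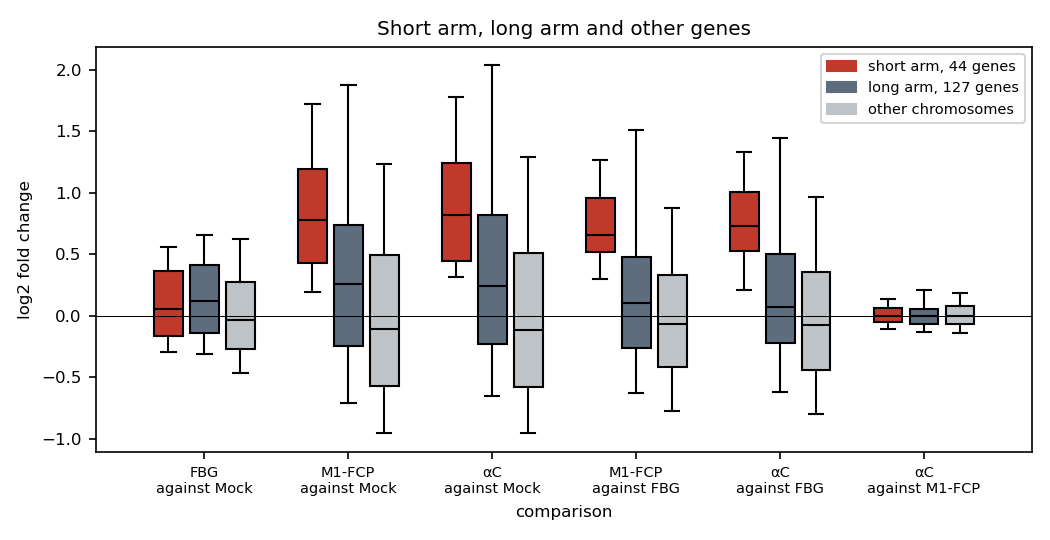
Log2 fold changes of the 44 short-arm genes, the 127 long-arm genes and the genes of other chromosomes in each comparison, with boxes at the quartiles and whiskers at the 10th and 90th percentiles. The short-arm boxes stand above the other sets where M1-FCP or αC is set against Mock or FBG, with medians of 0.66 to 0.82, and near 0 in FBG against Mock and αC against M1-FCP.

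The αC libraries gave nearly the same picture against Mock, which is the same pair of control libraries. Here 39 members were called higher, 3 lower and 2 not, where 74.7% of all genes were called, 38.0% higher and 36.7% lower. Of the 11276 genes over the count minimum, 37.3% were called higher and 47.7% lower. In 14 members the log2 fold change was at least 1, against 20.7% of all genes. Called or not, 1583 of those 11276 genes reached 1. The median log2 fold change was 0.82 on the short arm, 0.25 on the long arm and 0.06 over all genes. Between αC and M1-FCP themselves 40 of the 44 genes were not called, 3 were higher and 1 lower, where 9.01% of all genes were called, 4.57% higher and 4.45% lower. Of the 11276 genes over the count minimum, 6.14% were called higher and 6.26% lower. None of the 44 was higher by at least 1 on the log2 scale, against 0.307% of all genes and, called or not, 24 of those 11276. Of the 4 members called, only ANKRD12 was also called by DESeq2. The median difference between αC and M1-FCP was -0.0 with quartiles of -0.05 and 0.06.

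In the FBG libraries the members went both ways. In FBG against Mock 20 members were called higher, 11 lower and 13 not, where 50.4% of all genes were called, 24.2% higher and 26.3% lower. Of the 11276 genes over the count minimum, 29.7% were called higher and 35.8% lower. Among the members, calls of at least 1 on the log2 scale numbered 2, against 5.31% of all genes. Called or not, 416 of those 11276 genes reached 1. The median log2 fold change was 0.06 on the short arm, 0.12 on the long arm and 0.02 over all genes, and over the 4 library pairings the short-arm median minus the long-arm median was -0.11 to -0.03. With DESeq2 23 members were called in this comparison. Set against FBG in place of Mock, the M1-FCP libraries had 39 members higher, 2 lower and 3 not called, where 66.8% of all genes were called, 32.6% higher and 34.2% lower, and a median of 0.66 beside 0.10 over the long arm. Of the 11276 genes over the count minimum, 34.1% were called higher and 43.8% lower. Member calls of at least 1 numbered 9, against 13.6% of all genes and, called or not, 970 of those 11276. The αC libraries against FBG had 39 higher, 2 lower and 3 not called, where 68.3% of all genes were called, 33.8% higher and 34.5% lower, and a median of 0.73 beside 0.07. Of the 11276 genes over the count minimum, 34.6% were called higher and 44.2% lower. Here 11 members reached at least 1, against 15.2% of all genes and, called or not, 1096 of those 11276. These comparisons share the FBG libraries.

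In M1-FCP and αC against Mock the medians were above 0 along the whole arm. In 4 groups of 11 neighbouring genes, the median in M1-FCP against Mock was 1.02 from USP14 to MYL12A, 0.50 from MYL12B to ANKRD12, 0.84 from TWSG1 to TUBB6 and 0.79 from AFG3L2 to ZNF519. In αC against Mock the same groups had 0.91, 0.58, 0.82 and 0.82, and in FBG against Mock 0.08, -0.14, 0.13 and 0.28. The long-arm groups, in order from the centromere, had 0.40, 0.12, 0.26 and 0.20 in M1-FCP against Mock. The last members before the limit were CEP192, FAM210A, RNMT and ZNF519, with log2 fold changes of 1.28, 0.83, 1.72 and 1.85. The first genes beyond it were ROCK1 at 1.37, GREB1L at -0.53, ESCO1 at 1.02 and SNRPD1 at -0.73.

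**Figure D3:**
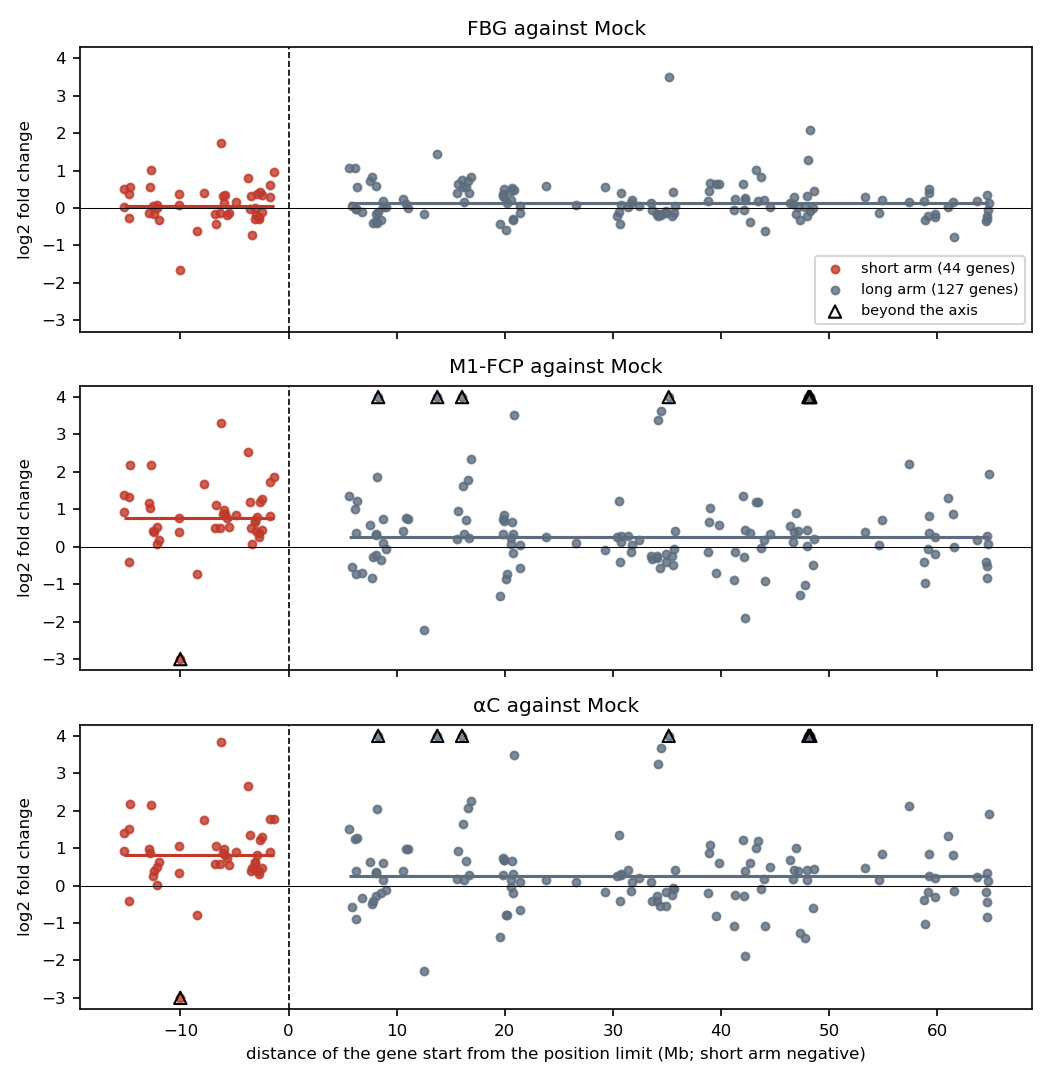
Log2 fold change of each chromosome 18 gene over the count minimum in FBG, M1-FCP and αC against Mock, by the distance of its start from the position limit in Mb (short arm negative), with horizontal lines at the medians of the arms and triangles for values beyond the axis. In M1-FCP against Mock the short-arm line lies at 0.78 and the long-arm line at 0.26, in αC against Mock at 0.82 and 0.25, and in FBG against Mock both lie near 0.

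The chromatin and RNA genes of the arm were all higher. All 7 measured members of this list were called higher in M1-FCP against Mock, with a median of 1.72, and all 7 in αC against Mock, with a median of 1.77. SMCHD1, the silencing protein whose GC-box upstream sequence is shown above, had 36.1 and 36.3 CPM in Mock, 71.7 and 75.9 in FBG, 165 and 166 in M1-FCP and 161 and 163 in αC. Its libraries fall into 3 steps without overlap, Mock, then FBG, then the other two groups, and the log2 fold change in M1-FCP against Mock was 2.19 ± 0.037 (SE; edgeR adjusted p = 4.32e-23). ANKRD12, a nuclear co-regulator that binds histone deacetylases, had 2.73 and 3.13 CPM in Mock, 10.2 and 9.5 in FBG, 29.9 and 28.1 in M1-FCP and 41.9 and 42.2 in αC. It is the member with the largest rise in M1-FCP against Mock and the largest difference between αC and M1-FCP, with log2 fold changes of 3.3 and 3.84 against Mock and 0.54 between the 2 groups (edgeR adjusted p = 2.95e-05). RNMT, which methylates the messenger RNA cap, had 18 and 19.9 CPM in Mock, 28.4 and 29.9 in FBG, 63.6 and 61.3 in M1-FCP and 62.5 and 67.5 in αC. THOC1, a subunit of the THO complex that couples transcription to RNA export, had 17 and 16.9, 23.5 and 25, 44.8 and 43.6, and 43.5 and 45.8 CPM. The rest were ZNF519, a zinc finger gene, at 1.85, METTL4 at 1.17 and SEH1L, a nuclear pore subunit, at 0.46 in M1-FCP against Mock. METTL4 was not called in FBG against Mock, where its back-to-back neighbour NDC80 was 0.55 higher.

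Signalling genes followed, with 9 of 11 called higher, none lower and a median of 0.88 in M1-FCP against Mock, and 11 of 11 higher in αC against Mock. YES1, a Src family tyrosine kinase at the membrane, had 31.9 and 29.1 CPM in Mock, 44 and 46 in FBG, 142 and 137 in M1-FCP and 136 and 142 in αC. No group overlapped another except M1-FCP and αC, and the log2 fold change in M1-FCP against Mock was 2.19 ± 0.045 (SE; edgeR adjusted p = 1.53e-21). GNAL, a G protein alpha subunit best known from olfaction, had 1.8 and 1.53 CPM in Mock, 2.9 and 2.9 in FBG, 9.17 and 10.3 in M1-FCP and 10.1 and 10.8 in αC, a log2 fold change of 2.54 in M1-FCP from a low level. GNAL had 23 to 43 counts in the Mock and FBG libraries and passed the count minimum only through M1-FCP and αC. Its place among the higher members therefore rests on the groups where it was high. PTPN2, a phosphatase that dampens cytokine signalling through JAK and STAT proteins, had 25.3 and 24.8, 34.1 and 33.9, 57.4 and 56.9, and 59.8 and 57.3 CPM. PPP4R1, a regulatory subunit of protein phosphatase 4, and TWSG1, which binds bone morphogenetic proteins, were each higher by 0.88. MPPE1, LPIN2 and ZBTB14 were higher by 0.50, 0.40 and 0.39. Exons of MPPE1 overlap those of GNAL, and without strand reads of the overlap cannot be assigned to either gene. TGIF1, a repressor in transforming growth factor beta signalling, and IMPA2, an inositol monophosphatase, were the exceptions. TGIF1 had 11.5 and 14.2 CPM in Mock, 10.2 and 10.4 in FBG, 13.5 and 15.8 in M1-FCP and 21.6 and 18.4 in αC, so that M1-FCP overlapped Mock while αC lay above both. IMPA2 had 12.5 and 13, 8.9 and 6.47, 14.5 and 12.2, and 17.2 and 17.8 CPM, with M1-FCP again overlapping Mock. Of these, TGIF1 is called in αC against M1-FCP at 0.45 and loses that call with DESeq2 or without M1-FCP replicate 1 or αC replicate 1.

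**Figure D4:**
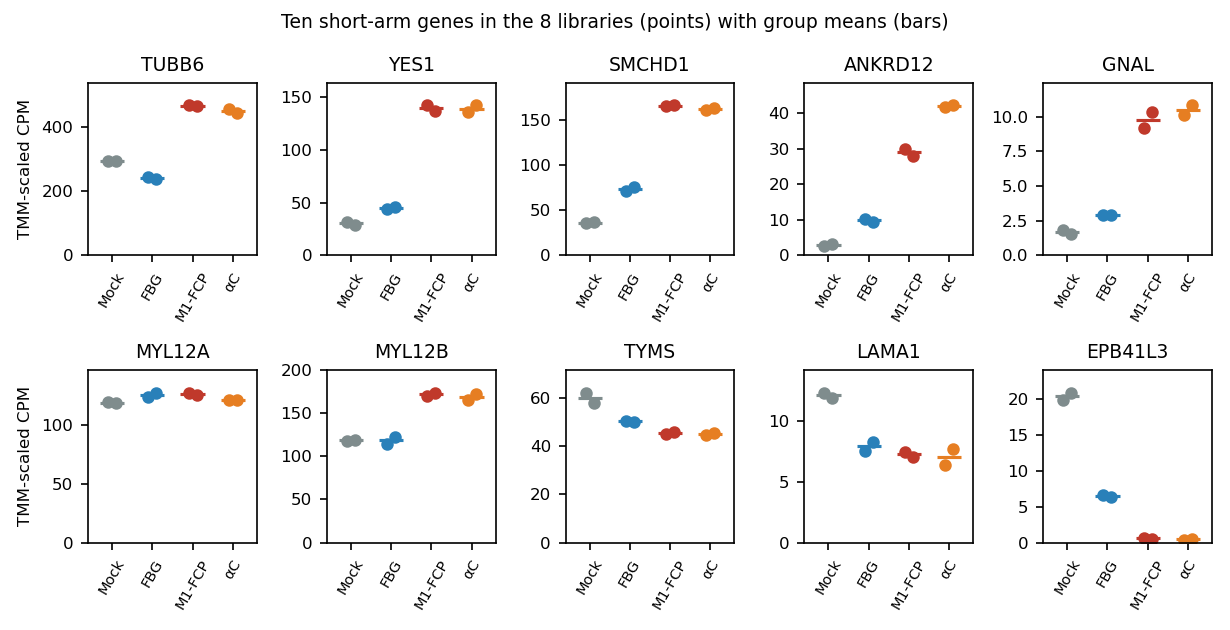
Level in TMM-scaled CPM of selected short-arm genes in each of the 8 libraries (points), grouped by treatment, on axes that start at 0, with a bar at the mean of each group's 2 libraries. SMCHD1, YES1 and ANKRD12 step up from Mock through FBG to M1-FCP, EPB41L3 steps down, and MYL12A stays near 120 CPM in all libraries.

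The cytoskeleton genes include both the most abundant and the most reduced member. In M1-FCP against Mock 5 of 6 were called higher and 1 lower, with a median of 0.60, and in αC against Mock 4 were higher, 1 lower and 1 not called. ARHGAP28, of the same list, missed the count minimum but was tested. Against Mock it was called higher in FBG at 1.24 and lower in αC at -1.11, and was not called in M1-FCP at -0.41. TUBB6, a beta-tubulin, had 295 and 293 CPM in Mock, 243 and 238 in FBG, 468 and 465 in M1-FCP and 457 and 446 in αC. It fell by 0.29 in FBG and rose in M1-FCP by 0.67 ± 0.019 (SE; edgeR adjusted p = 1.07e-18), with no overlap between any of the groups. Per length, as mean TPM, length-scaled level, over the 8 libraries, TUBB6 led with 357, followed by MYL12B with 330 and MYL12A with 94.6. MYL12A and MYL12B encode near-identical regulatory light chains of non-muscle myosin II and lie next to each other, and reads of one may have been assigned to the other or lost. MYL12B had 118 and 119 CPM in Mock, 115 and 123 in FBG, 170 and 174 in M1-FCP and 166 and 172 in αC, while MYL12A had 120 and 119, 124 and 128, 128 and 126, and 122 and 122. The neighbours thus differed, with log2 fold changes of 0.53 and 0.08 in M1-FCP against Mock, and the call for MYL12A is lost with DESeq2 and without Mock replicate 1, Mock replicate 2 or M1-FCP replicate 1. MTCL1, a microtubule crosslinker, fell by 0.42 in FBG and was 1.13 higher in M1-FCP. SPIRE1, an actin nucleator, was 0.79 higher. EPB41L3, a member of the protein 4.1 family that anchors membrane proteins to the actin skeleton, had 19.9 and 20.9 CPM in Mock, 6.67 and 6.33 in FBG, 0.612 and 0.524 in M1-FCP and 0.381 and 0.465 in αC. It ran against the direction of its neighbours, with a log2 fold change of -1.65 in FBG and -5.15 ± 0.19 (SE; edgeR adjusted p = 6.99e-17) in M1-FCP, and the upstream sequence shown for it belongs to a RefSeq start inside the gene's counted span.

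Of the genes for cell division and nucleotide supply, 4 of 5 were called higher and 1 lower in M1-FCP against Mock, with a median of 1.02. NDC80 had 28.6 and 28.9 CPM in Mock, 41.2 and 43.1 in FBG, 59.5 and 57.6 in M1-FCP and 53.4 and 51.5 in αC. Its rise of 1.02 in M1-FCP exceeded that in αC by 0.16, a difference whose call is lost with DESeq2 and when any M1-FCP or αC library is left out. TYMS, which makes thymidylate for DNA synthesis, had 62.4 and 58.2 CPM in Mock, 50.6 and 50.3 in FBG, 45 and 46.1 in M1-FCP and 44.6 and 45.7 in αC. Every treated library lay below both Mock libraries, and TYMS fell by 0.40 ± 0.049 (SE; edgeR adjusted p = 1.4e-07) in M1-FCP. ENOSF1, whose 3′ end overlaps TYMS on the other strand, ran the opposite way, with 25.7 and 27.9, 33.6 and 35.4, 69.5 and 66.1, and 75.7 and 76.7 CPM. Because the counting used no strand, reads of the overlap cannot be assigned to one of these 2 genes. CEP192, a centrosome scaffold, was 1.28 higher in M1-FCP, and CEP76, which limits centriole duplication, was 0.38 higher, a call lost with DESeq2 and without Mock replicate 1.

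Matrix and surface genes were mixed, with 2 of 3 called higher and 1 lower in M1-FCP against Mock and a median of 0.43. PTPRM, a receptor phosphatase that binds itself on neighbouring cells, had 11.3 and 9.93 CPM in Mock, 14.6 and 13.6 in FBG, 33.1 and 34.8 in M1-FCP and 34.8 and 36 in αC, a log2 fold change of 1.68. APCDD1 and LDLRAD4, of the same list, missed the count minimum and were called lower at -4.34 and -1.82, so the list's tested genes were 2 higher and 3 lower. A gene that is low in M1-FCP and αC has a lower mean over the 8 libraries, so the minimum itself can leave such genes out. EMILIN2, an elastic-fibre glycoprotein, was 0.43 higher. LAMA1, the laminin alpha 1 chain of basement membranes, had 12.3 and 11.9 CPM in Mock, 7.48 and 8.29 in FBG, 7.47 and 7.03 in M1-FCP and 6.34 and 7.7 in αC. All 6 protein-treated libraries lay below Mock, the αC libraries overlapped those of FBG and of M1-FCP, and LAMA1 had log2 fold changes of -0.62 in FBG and -0.74 in M1-FCP (edgeR adjusted p = 0.000529 and 3.43e-05).

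The membrane traffic genes were all higher, 5 of 5 in both M1-FCP and αC against Mock, with medians of 0.77 and 0.74. CHMP1B, an ESCRT-III subunit that cuts membrane necks, had 26.5 and 27.5 CPM in Mock, 24.9 and 28.4 in FBG, 62.9 and 61.8 in M1-FCP and 67.3 and 69.5 in αC. FBG overlapped Mock, and both lay below the other libraries by a log2 fold change of 1.21 in M1-FCP against Mock. NAPG, which helps take SNARE complexes apart, RAB31 and RAB12, small GTPases of vesicle sorting, and VAPA, an anchor of the endoplasmic reticulum at contact sites, were higher by 0.84, 0.77, 0.49 and 0.52. In FBG against Mock RAB31, RAB12 and VAPA were lower, by log2 fold changes of -0.18, -0.16 and -0.15. Scaling by library size alone ends these 3 calls. They are also lost without Mock replicate 1 or FBG replicate 2 for RAB31, Mock replicate 2 or FBG replicate 1 for RAB12 and Mock replicate 2 for VAPA.

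Of the genes for protein turnover and mitochondria, 4 of 6 were called higher in M1-FCP against Mock, none lower, with a median of 0.60. USP14, the deubiquitinase that trims ubiquitin chains at the proteasome and the first member on the arm, had 79.8 and 78.8 CPM in Mock, 79.7 and 82.7 in FBG, 150 and 150 in M1-FCP and 147 and 151 in αC. The FBG libraries overlapped Mock, and the M1-FCP and αC libraries were apart from them, at a log2 fold change of 0.92 ± 0.032 (SE; edgeR adjusted p = 2.96e-17). AFG3L2, a subunit of the mitochondrial m-AAA protease, had 68.8 and 64.5, 65.3 and 67.4, 112 and 105, and 99.1 and 102 CPM. FAM210A and NDUFV2, a complex I subunit, were higher by 0.83 and 0.50. PRELID3A and PSMG2, a proteasome assembly chaperone, were not called, at 0.41 (edgeR adjusted p = 0.0506) and 0.27 (edgeR adjusted p = 0.0788). LINC00667, the non-coding member, was higher by 0.76 in M1-FCP and by 1.05 in αC against Mock.

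For some members, partner genes on other chromosomes were listed, and most of these were called lower in M1-FCP against Mock. The lists are a choice, do not hold every partner and hold none on chromosome 18. Of 53 listed partners in 12 complexes and pathways, 45 had no copy row and were tested. In M1-FCP against Mock 9 were called higher, 32 lower and 4 not, with a median of -0.44. Over all 11276 tested genes without a copy and over the count minimum, 37.2% were called higher and 46.9% lower, with a median of -0.10. In αC against Mock 8 partners were higher and 33 lower, with a median of -0.48, where 37.3% and 47.7% of those genes were called. In FBG against Mock 14 were higher, 19 lower and 12 not called, where the shares were 29.7% and 35.8%. SPC24, which sits in the kinetochore complex with NDC80, was lower by a log2 fold change of -1.01, while NUF2, in the same complex, was called higher at 0.16. TK1, which works beside TYMS in thymidylate supply, was lower at -1.11, the direction of TYMS itself. The complex I genes NDUFS6, NDUFV3 and NDUFV1, partners of NDUFV2, stood at -1.11, -0.96 and -0.59, and the myosin light chain genes MYL9 and MYL6 at -1.63 and -1.16. Of the 6 tested complex I genes 5 were called lower, none higher and 1 not. Of the 6 tested non-muscle myosin II genes 4 were lower and 2 higher. The Y complex of the nuclear pore, to which SEH1L belongs, had 6 of 7 lower and none higher. The largest of the 9 called higher were THOC2, in the THO complex with THOC1, at 1.64, LYN, a kinase related to YES1, at 1.38, and NAPB at 0.83.

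**Figure D5:**
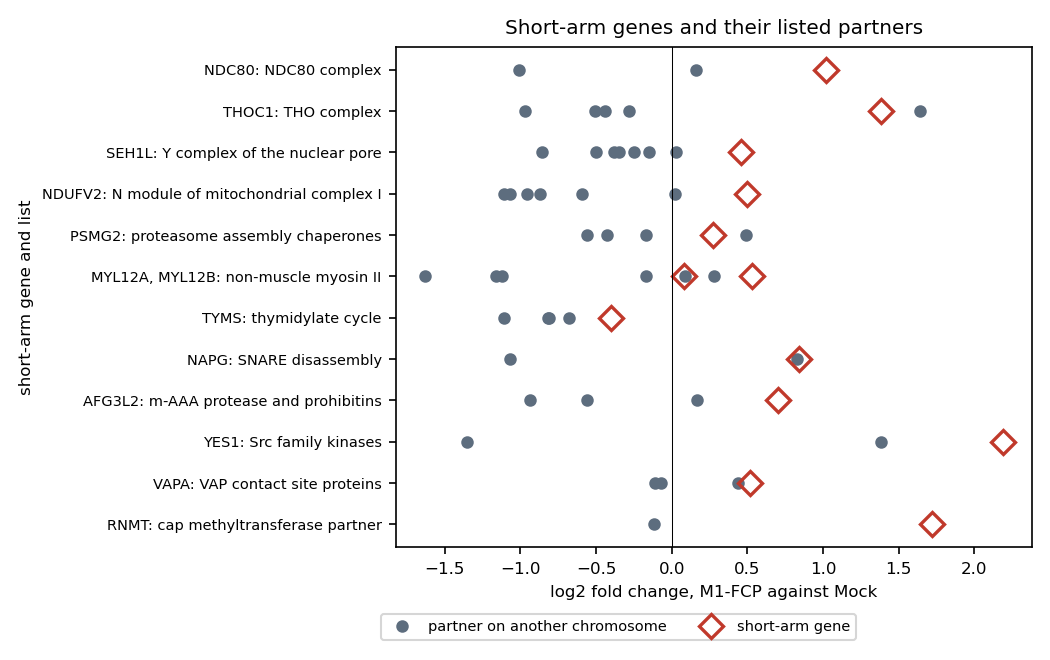
Log2 fold change in M1-FCP against Mock of short-arm members and of listed genes on other chromosomes whose products work with them, grouped by complex or pathway. Most members lie to the right of 0, and most of the partners to the left, with a partner median of -0.44.

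On the long arm, genes listed for their roles in adhesion and signalling moved both ways in M1-FCP against Mock. The desmosomal cadherins DSG3, DSG2, DSC2 and DSC3 stood at log2 fold changes of 5.87, 1.61, 0.97 and 0.20, and LAMA3, an epithelial laminin chain, at 4.29. CDH2, the mesenchymal N-cadherin, stood at -2.24. ROCK1, the kinase upstream of myosin light chains, stood at 1.37, and SMAD2 and SMAD4 at 0.17 and -0.05.

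Base composition and length moved with the fold changes as well. The members had a median GC content of 45.4% and a median exon length of 5142 bases, against 44.6% and 6261 on the long arm and 48.3% and 4523 over all genes without a copy and over the count minimum. Across the 44 genes, which share the libraries, Spearman's rho of GC content with the log2 fold change was -0.57 in FBG against Mock, -0.54 in M1-FCP against Mock and -0.50 in αC against Mock. The same rho over all those genes was -0.55, -0.37 and -0.33. With the trends on GC content and length removed, the members' medians were -0.02, 0.73 and 0.77 in the same order and those of the long arm -0.05, 0.05 and 0.07. Exons of 16 of the 44 members overlap another listed gene, as do those of 34 of the 127 long-arm genes.

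The count minimum passed PRELID3A, EPB41L3 and GNAL with mean counts of 84.8, 106 and 134 and left out MYL12-AS1, ANKRD20A5P and CHORDC1P4 at 33.1, 32.9 and 32. GNAL passed through M1-FCP and αC, with 210 to 255 counts there. EPB41L3 passed through Mock and FBG, with 94 to 313 counts there. All 44 members passed the filter of the test. Of the 166 short-arm rows below the minimum, 99 had no count in any library, 67 had at least 1 and 23 of them were tested.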

How the data were processed

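RNA was measured by sequencing in 8 BEAS-2B libraries, 2 in each of 4 groups. The deposited values are raw counts per gene that the authors made by counting read pairs over exons with featureCounts, with no strand or multi-mapping option, per the file headers, which give version 1.6.0. The submitters' processing notes give featureCounts 1.6.2, Trimmomatic 0.39, HISAT2 2.2.1, SAMtools 1.9 and GRCh38.p14, which the coordinates follow. Reads shared by near-identical genes may be lost, and overlapping genes cannot be told apart without strand.

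The counts were tested with edgeR 4.0.16 in R 4.3.3 (quasi-likelihood, robust, TMM scaling, filterByExpr) on all 8 libraries in 1 fit with 4 residual degrees of freedom. Of the genes, 16307 were tested, and the common coefficient of variation was 0.102. Benjamini-Hochberg adjustment was made in each of 6 comparisons separately, and an adjusted p under 0.05 was a call. CPM values are TMM-scaled. Standard errors, taken as the absolute log2 fold change over the square root of F, are approximate. They lay below counting error for 37, 24, 24, 18, 15 and 1 of the 44 members in FBG, M1-FCP and αC against Mock, M1-FCP and αC against FBG and αC against M1-FCP, and are too small there. No call had a 95% counting interval over 0. Intervals and floors of 3 counts cover counting error only. GC content came from GENCODE transcripts matched by gene name.

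On simulated counts for M1-FCP against Mock (14301 genes), 89% of genes changed by 0.5 and 99% of those changed by 1 on the log2 scale were recovered. Only 100 genes were changed at each size. The simulated libraries varied less than the common coefficient of variation of 0.102 in the data, so recovery in the data may be lower. The values of 1 member and 1 partner gene are not reported singly here, and both stay in the counts and medians. Members and lists were chosen with earlier results of these data known. Values per library are given for the 8 members of highest mean TPM, the 3 called members of smallest p in each direction and comparison, and members needed for a role list. Alternatives were DESeq2 1.42.0, scaling by library size, no filter, a replicate block, leaving out each library, GC and length trends, count minimums of 10 and 500, and leaving out genes with overlapping exons.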

Additional observations from a re-analysis of the deposited data

How the results depend on the processing

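The number of the 44 members called was 31 in FBG against Mock, 40 in M1-FCP against Mock, 42 in αC against Mock, 41 in each comparison with FBG and 4 in αC against M1-FCP. With DESeq2, scaling by library size alone, no filter, the replicate block and single libraries left out it stayed within 1.5 times these numbers, except in αC against M1-FCP, where DESeq2 called 1 and leaving out single libraries left 1 to 2. Leaving out single libraries gave 24 to 29, 38 to 41, 39 to 42, 39 to 40 and 39 in the other comparisons. The short-arm median minus the long-arm median was -0.06, 0.52, 0.57, 0.56, 0.65 and 0.0 in the same order. In FBG against Mock it turned to 0.03 with the GC and length trends removed and to 0.01 with a count minimum of 10 or 500, and was -0.01 without genes of overlapping exons. With the trends removed it was 0.67 in M1-FCP and 0.70 in αC against Mock, and 0.71 and 0.75 against FBG. With a minimum of 500 counts it was 0.66, 0.67 and, in M1-FCP against FBG, 0.60, and with a minimum of 10 it was 0.60 and 0.63 against FBG. Without genes of overlapping exons it was 0.57 in M1-FCP and 0.66 in αC against Mock. Left-out libraries gave -0.08 to -0.04 in FBG against Mock, 0.50 to 0.57 in M1-FCP against Mock, 0.51 to 0.62 in αC against Mock, 0.56 to 0.59 in M1-FCP against FBG, 0.65 to 0.66 in αC against FBG and -0.01 to 0.02 in αC against M1-FCP. Where a left-out library leaves 1 in its group, that library is assumed to vary like the others. The cause of these moves was not tested. Over single genes and settings, 1995 values kept their call, 91 lost it, 25 gained one and 1 turned. That one is AFG3L2 in FBG against Mock, at 0.11 with scaling by library size alone. Sign changes of values called in neither setting count among the 1995. Samples of equal replicate number did not deviate together (correlations from -0.0749 to 0.0652 over 11276 genes). Because libraries of a group differ by little more than counting error, these correlations cannot show whether equal numbers share a culture or day. With the replicate block 30, 41, 42, 41, 41 and 4 members were called, with median differences of -0.06, 0.52, 0.57, 0.56, 0.65 and 0.0. Depth limits the members of lowest count, such as PRELID3A and GNAL.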

Other observations

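Among the short-arm rows below the count minimum, the following were picked after their values had been seen. APCDD1, an inhibitor of Wnt signalling, had 63 and 73 counts in Mock, 18 and 23 in FBG, 3 and 7 in M1-FCP and 3 and 3 in αC, so it was lower where most of its neighbours on the arm were higher. ANKRD30B had 16 and 18, 28 and 24, 5 and 4, and 4 and 3 counts, and LDLRAD4, a brake on transforming growth factor beta signalling, had 13 and 13, 13 and 24, 5 and 6, and 7 and 4. Several non-coding rows were detected nearly only in M1-FCP and αC. LOC105371954 had 0 and 0 counts in Mock, 2 and 0 in FBG, 43 and 64 in M1-FCP and 44 and 60 in αC. LINC00470 had 0 and 0, 0 and 2, 29 and 29, and 33 and 36, and LOC124904251 had 0 and 0, 1 and 1, 27 and 38, and 37 and 34. Exons of LOC124904251 overlap those of the member GNAL, which was also higher there. Without strand, reads of the overlap cannot be assigned to either gene.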
